A study of Macaca mulatta and Mus musculus and Rattus norvegicus with 12 samples.

Results

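A set of 9 genes of the osteoblast lineage were followed in calvaria and tibia, namely the transcription factor genes RUNX2, SP7, DLX3, DLX5, DLX6, MSX1, MSX2 and ATF4 and the gene of the bone matrix protein osteocalcin, BGLAP. The genes were taken by their symbol in the count table of each species, and they made up 9 of the 10536 symbols tested. In mouse and in rat 9 of the 9 had a row under their symbol. In macaque 7 of 9 did, and MSX1 and MSX2 were absent under those symbols. NCBI's macaque RefSeq table gave the name MSX1 to the row LOC722771 and MSX2 to the row LOC694227, and the reads of these rows are given below under these names. That table is of a newer assembly than the one used for counting, and it served only for names.

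Poly(A)+ RNA of bone enriched for osteocytes, the cells enclosed in bone matrix, was sequenced in 12 libraries of skull vault (calvaria) and shin bone (tibia) in 3 species. The mouse groups were C57BL6 animals of 4 months, M4 and M8 being calvaria and M5 and M7 tibia, and each library was a pool of 3 mice. The rat groups were Wistar animals of 6 months, with 1 calvaria library (R1) and 1 tibia library (R3), each a pool of 2 rats, so rat values have no replicates. For the rhesus macaque groups, G1, G3 and T1 were calvaria and G2, G4 and T2 were tibia, and each library was of 1 animal. The labels give the macaque age as 4 to 6 in months, whereas the methods of the study give the same figures in years. All animals were female. In all groups the periosteum was removed and the bone was scraped and briefly digested with collagenase, and only the rodent tibias had their marrow spun out. Calvaria and tibia of 1 animal or pool were paired by the study's methods, but the pairs are not named, and pairing by adjacent numbers (G1 with G2, G3 with G4, T1 with T2) is an assumption.

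RUNX2 is the transcription factor without which no osteoblasts form, and SP7 (osterix) acts downstream of it. DLX and MSX proteins are homeodomain transcription factors that pattern the skull and limbs and act on RUNX2 and on the osteocalcin promoter. ATF4, a factor of the amino acid and stress responses, works with RUNX2 at that promoter, and osteocalcin is secreted by mature osteoblasts and young osteocytes.

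The homeobox members shown here, Dlx5, Dlx6, Dlx3 and Msx2, can be read apart by their sequence, which bears on whether short reads could have been given to the wrong gene. The stretches below code for residues 46 to 60 of the 60-residue homeodomain, the end of the helix that lies in the DNA groove, in the GENCODE vM21 annotation of mouse build GRCm38. Capitals mark bases that differ from Dlx5. Dlx5 lies in exon 3 of 3 at chr6:6878441-6878485 (minus strand), Dlx6 in exon 3 of 3 at chr6:6867044-6867088 (plus), Dlx3 in exon 3 of 3 at chr11:95123412-95123456 (plus) and Msx2 in exon 2 of 2 at chr13:53468370-53468414 (minus).
Dlx5: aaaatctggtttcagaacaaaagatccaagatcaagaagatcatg
Dlx6: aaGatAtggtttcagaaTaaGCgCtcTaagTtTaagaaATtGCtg
Dlx3: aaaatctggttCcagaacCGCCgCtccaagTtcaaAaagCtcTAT
Msx2: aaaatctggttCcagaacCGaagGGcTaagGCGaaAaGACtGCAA
Over these 45 bases Dlx6 differed from Dlx5 at 13 positions, Dlx3 at 12 and Msx2 at 17. Over the full homeobox of 180 bases, Dlx5 and Dlx6 were 73.3% identical, Dlx5 and Dlx3 71.7%, and Dlx5 and Msx2 58.9%. No window of 125 bases, the read length, in the transcripts of the 8 factor genes was found in the transcript of another gene.

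Osteocalcin differs from the other members in this respect, because the mouse genome holds neighbouring copies of it. Bglap lies at chr3:88383501-88384464 (minus strand, 4 coding exons) and Bglap2 at chr3:88377736-88378699 (minus strand, 4 coding exons). Their coding sequences of 285 bases are printed because they differ at only 4 positions, which are in capitals.
Bglap: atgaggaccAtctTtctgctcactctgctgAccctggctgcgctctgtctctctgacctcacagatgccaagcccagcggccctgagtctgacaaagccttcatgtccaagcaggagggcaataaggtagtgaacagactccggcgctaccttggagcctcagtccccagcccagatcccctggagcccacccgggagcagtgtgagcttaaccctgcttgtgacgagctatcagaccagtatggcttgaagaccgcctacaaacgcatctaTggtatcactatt
Bglap2: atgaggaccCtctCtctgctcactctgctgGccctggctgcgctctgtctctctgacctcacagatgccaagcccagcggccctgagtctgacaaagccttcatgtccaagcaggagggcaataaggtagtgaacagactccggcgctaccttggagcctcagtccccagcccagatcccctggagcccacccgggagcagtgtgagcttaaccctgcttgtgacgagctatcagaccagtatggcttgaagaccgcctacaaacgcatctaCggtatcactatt
The longest identical run was 241 bases. Of the 316 windows of 125 bases in the Bglap transcript, 142 (44.9%) were also in the Bglap2 transcript, so reads from these windows could not be assigned to either gene. The mouse osteocalcin values below are therefore uncertain as to the copy.

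The tables held between 13934813 and 16826535 reads on named genes in mouse, 14255423 and 12233256 in rat calvaria and tibia, and between 7951585 and 10342459 in macaque. All 5 osteocyte markers examined (SOST, DMP1, MEPE, PHEX and PDPN) had reads in every library, and their summed level was lower in calvaria in each species, at 979 to 1850 against 8013 to 10433 CPM in mouse (CPM are reads per 1000000 reads on named genes), 500.2 against 7242 in rat and 4546 to 5688 against 7746 to 19462 in macaque. The markers did not move alike in macaque. The fitted log2 ratio of calvaria over tibia there was -1.53 for SOST and -1.40 for MEPE. It was -0.21 for DMP1, -0.35 for PDPN and 0.22 for PHEX. Neutrophil markers (7 of 7 with a row in rodents, 6 of 7 in macaque) summed to 90622 to 113570 in calvaria against 58112 to 63414 CPM in tibia in mouse, to 79491 against 42815 in rat, and to 36483 to 53692 against 7791 to 14154 in macaque. In macaque the erythroid markers (6 of 7 with a row, 25532 to 33151 against 7619 to 9972 CPM) and the megakaryocyte markers (5 of 5, 235 to 313 against 16.0 to 30.5 CPM) were also higher in calvaria in every library, while those of endothelium and pericytes (6 of 6, 454 to 682 against 833 to 1349 CPM) were higher in tibia. The platelet genes GP9 in all 3 macaque tibias and GP1BA in G2 and G4, and the endothelial gene CDH5 in G1, G2 and G4, were at 0. B cell markers (5 of 7, 39.8 to 47.4 against 11.3 to 26.8 CPM) were higher in macaque calvaria too. So were adipocyte markers (5 of 5, 1484 to 2356 against 750 to 1429 CPM). CD79B and CIDEC of these lists were at 0 in every macaque library. In mouse the adipocyte sum was lower in calvaria (185 to 507 against 947 to 1141 CPM). Skeletal muscle markers (8 of 8) summed to 8.70 CPM in rat calvaria, with CKM at 0, against 1090 in rat tibia. The calvaria libraries of mouse stood apart from each other. M4 had higher sums than M8 for osteocyte markers (1850 against 979 CPM), for 6 markers of periosteum and fibroblasts (695 against 168 CPM, with 2197 and 2253 in the tibias) and for chondrocyte markers (66.2 against 11.6 CPM, with 500 to 641 in the tibias; MATN3 was at 0 in M4 and M8, and MATN1 in M8 and in the tibia M7). In bulk bone, fewer cells of a type and less RNA per cell cannot be told apart. The part of these markers in the results below was not tested.

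In macaque, 5 of the 9 genes, RUNX2, SP7, DLX3, DLX5 and MSX1, were called higher in tibia and 0 higher in calvaria by edgeR's quasi-likelihood test (false discovery rate under 0.2 and fold change over 1.1). Of all symbols tested, 12.6% were called higher in tibia in that comparison. Without the rows known only by a LOC number, 4 of 7 genes were called. In either direction 26.7% were called. In mouse 0 of 9 genes were called against 0.304% of all symbols, and 2 of them (DLX3 and ATF4) had an unadjusted p under 0.05. The exact test of edgeR and DESeq2 each called 1 of 9, DLX3. In rat, where no test was possible, 4 of the 8 genes with more than 3 reads in a library were past a log2 ratio of 2 toward tibia, against 6.39% of all symbols. That share was taken without the floor of reads, so it is not a like comparison. Of those past the ratio, SP7 and MSX2 had only 2 reads each in calvaria. Over the 9 genes the calvaria over tibia log2 fold change had a median of -0.77 in macaque against 0.0096 for all symbols tested, and -0.15 in mouse against 0.039. Over the 8 rat genes with a ratio the median was -1.86 against -0.20 for all symbols, again without the floor.

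**Figure D1:**
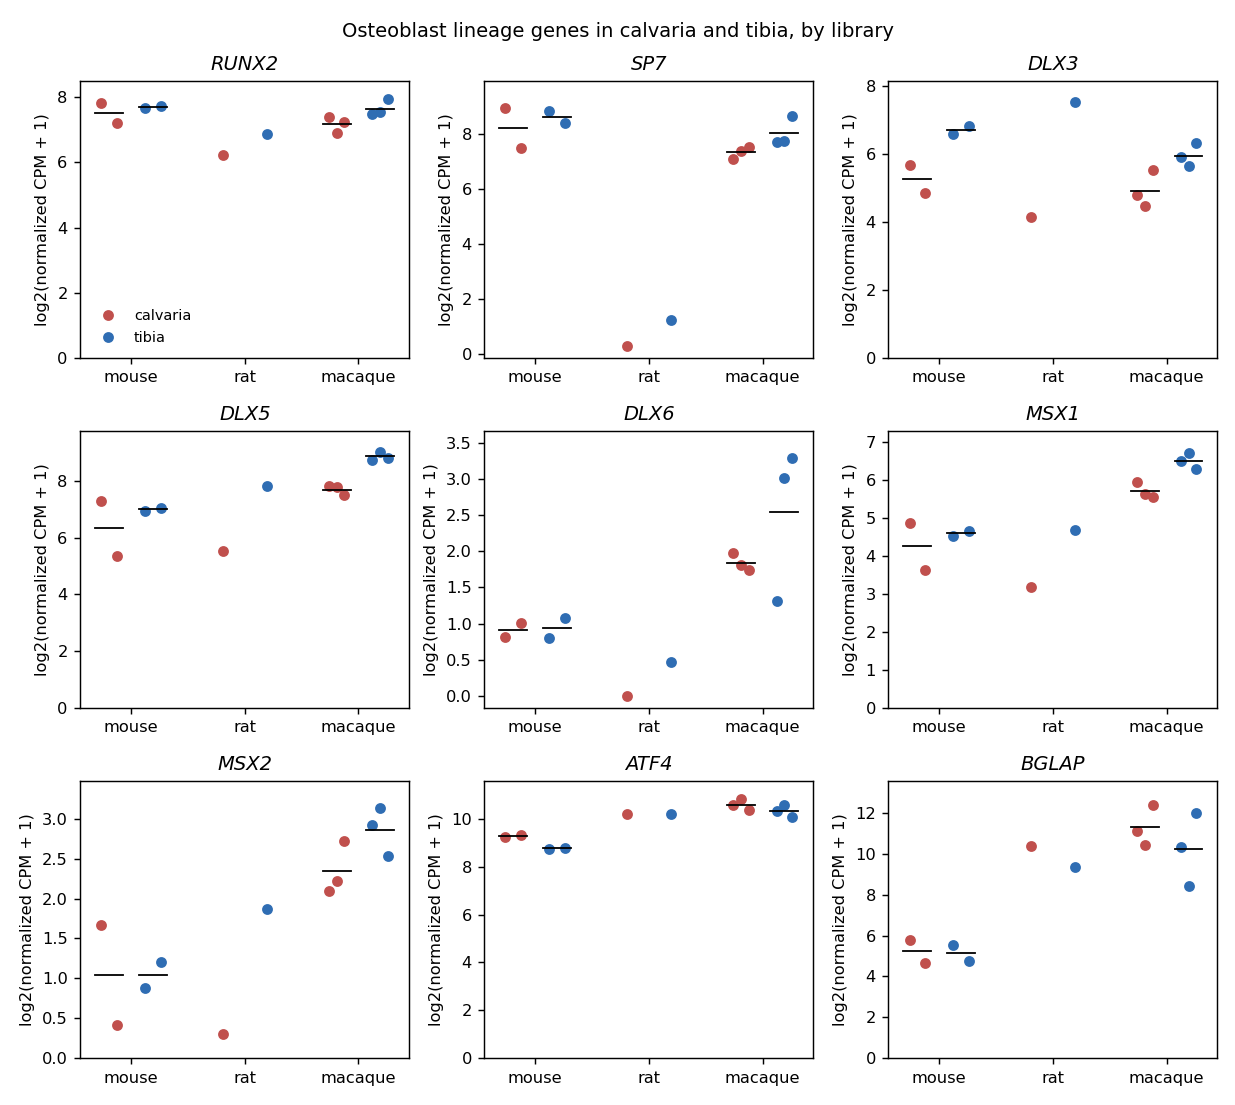
Level of each gene in each library, as log2 of normalized CPM plus 1, by species and site (red, calvaria; blue, tibia). Points are libraries and bars are the mean of the plotted values where a site has replicates; the 3 macaque tibias lie above the 3 calvariae for RUNX2, SP7, DLX3, DLX5 and MSX1.

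RUNX2, the master regulator of the lineage, was lower in macaque calvaria by a small amount. Normalized CPM divide the reads by those on all tested symbols and, in mouse and macaque, by the TMM factor. In rat they took no TMM factor. In macaque calvaria RUNX2 was at 167 (G1), 119.8 (G3) and 151 (T1). In tibia it was at 179 (G2), 185 (G4) and 244 (T2). All tibias lay above all calvariae, at means of 203 ± 35.9 and 146 ± 23.8 (SD, n = 3 each), and the log2 fold change was -0.48 (SE 0.183, adjusted p = 0.108). The call was lost without G3 (-0.35, adjusted p = 0.316) or without T2 (-0.32, adjusted p = 0.222). In mouse the calvariae had 227 (M4) and 147 (M8) against 205 (M5) and 210.2 (M7), so that one calvaria was above and the other below both tibias. The mouse log2 fold change was -0.15 (SE 0.263, adjusted p = 0.887). Rat had 73.8 in calvaria and 115 in tibia, a log2 ratio of -0.64 with 1 read added to each.

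SP7, which commits precursors to the osteoblast fate after RUNX2, was at 135, 166 and 184 normalized CPM in macaque calvaria (G1, G3, T1) and at 206, 215 and 405 in tibia (G2, G4, T2). The sites did not overlap, and T2 was the library that lay farthest from the rest. The log2 fold change was -0.77 (SE 0.236, adjusted p = 0.0449), and without T2 it was -0.38 (adjusted p = 0.127). In mouse SP7 was at 488 in M4 and 177 in M8 against 451 in M5 and 341 in M7. The calvariae enclosed the tibias, with a log2 fold change of -0.25 (SE 0.488, adjusted p = 0.901). In the rat table SP7 had only 2 reads in calvaria and 11 in tibia, although Sp7 was among the highest of the genes in mouse. The ratio of these reads, scaled by library size, was 6.01 in favour of tibia with an exact 95% interval of 1.31 to 55.8, which covers counting error only.

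Among the homeobox genes, DLX3, which acts in tooth, hair and bone matrix formation, had the largest log2 fold change of the 9 genes in mouse. Its normalized CPM in macaque were 26.4, 20.9 and 44.5 in calvaria (G1, G3, T1) and 58.4, 48.3 and 78.8 in tibia (G2, G4, T2). In mouse they were 50.2 and 27.5 in calvaria (M4, M8) against 93.8 and 112 in tibia (M5, M7), and in rat 16.5 against 181. In each species every calvaria library lay below every tibia library, and 20.8% of all symbols in mouse and 14.5% in macaque had no overlap in that direction. The log2 fold change was -1.01 in macaque (SE 0.276, adjusted p = 0.0254). In mouse it was -1.41 (SE 0.332), larger in size than in macaque but short of the threshold at an adjusted p of 0.453. It was called in mouse by the exact test of edgeR (adjusted p = 0.0292), by DESeq2 (0.0259) and when all 22339 mouse symbols were tested (0.0480), where 2.48%, 2.09% and 1.57% of symbols were called higher in tibia. The rat log2 ratio was -3.45.

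DLX5, which switches on RUNX2 and SP7 in response to BMP signals, differed between the macaque sites by more than any other called member. Its normalized CPM were 226, 219 and 179.8 in macaque calvaria (G1, G3, T1) and 434, 522 and 452 in tibia (G2, G4, T2). The gap between the sites was wide relative to the spread within them, with means of 208 ± 24.6 and 469 ± 46.4 (SD, n = 3 each), a tibia level 2.26 times that of calvaria, a log2 fold change of -1.17 (SE 0.164) and an adjusted p of 0.000258. In mouse M4 was highest (156) and M8 lowest (40.3) of the 4 libraries, with 123 and 131 in the tibias, and the log2 fold change was -0.37 (SE 0.599, adjusted p = 0.876). Rat had 45.8 in calvaria and 229 in tibia, a log2 ratio of -2.32.

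DLX6 is the neighbour of DLX5 in the genome and shares its enhancers, but it was near the limit of detection. The reads were 8 and 9 in mouse calvaria (M4, M8), 9 and 11 in mouse tibia (M5, M7), and 0 and 3 in rat calvaria and tibia, where no ratio is given. Macaque calvaria had 16, 13 and 13 reads (G1, G3, T1) and tibia 9, 41 and 60 (G2, G4, T2). One macaque tibia was thus below all calvariae and the other two above, and the log2 fold change of -1.16 (SE 0.591) had an adjusted p of 0.236. Without G2 it was -1.61 (adjusted p = 0.0834). Counting took no account of strand. In the mouse annotation, 0 of the 2092 windows of 125 bases in the Dlx6 transcript were in another gene's transcript on either strand.

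MSX1, which acts in the development of skull, jaws and teeth, was at 60.4, 48.4 and 45.99 normalized CPM in macaque calvaria (G1, G3, T1) and at 88.5, 102 and 77.1 in tibia (G2, G4, T2). The sites did not overlap, and the log2 fold change was -0.79 (SE 0.196, adjusted p = 0.0152). Mouse had 28.3 and 11.3 in calvaria (M4, M8) against 22.05 and 24.3 in tibia (M5, M7), again with M4 above and M8 below both tibias (log2 fold change -0.22, SE 0.455, adjusted p = 0.907). Rat had 8.07 against 24.7, a log2 ratio of -1.60.

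MSX2, whose mutation in people causes early or failed closure of the skull vault, was low in all libraries. Macaque calvaria had 3.28, 3.65 and 5.61 normalized CPM (G1, G3, T1) and tibia 6.59, 7.79 and 4.82 (G2, G4, T2), so T1 lay above T2 and the sites overlapped (log2 fold change -0.61, SE 0.438, adjusted p = 0.415). Mouse had 23 and 3 reads in calvaria (M4, M8) against 10 and 13 in tibia (M5, M7), with a log2 fold change of 0.26 (SE 1.03). Rat had 2 reads in calvaria and 21 in tibia, a ratio of 11.5 in favour of tibia with an exact 95% interval of 2.80 to 101.

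ATF4 was fitted higher in calvaria in both mouse and macaque, and passed the threshold in neither. Its normalized CPM were 611 and 635 in mouse calvaria (M4, M8) against 426 and 446 in tibia (M5, M7). Both calvariae were higher and lay close together, unlike for most members, and the log2 fold change was 0.52 (SE 0.189) with an unadjusted p of 0.0378 and an adjusted p of 0.636. In the same direction 19.2% of all mouse symbols had no overlap. Macaque had 1528, 1806 and 1336 in calvaria (G1, G3, T1) and 1306, 1539.8 and 1095 in tibia (G2, G4, T2), which overlapped (log2 fold change 0.24, SE 0.184, adjusted p = 0.437). Rat had 1167 and 1184, a log2 ratio of -0.021 that became 0.18 with TMM factors. ATF4 is controlled largely at translation, which read counts do not measure.

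BGLAP, the marker of mature osteoblasts, ranged more widely between macaque libraries than any other member. Its normalized CPM were 2222, 1379 and 5489 in calvaria (G1, G3, T1) and 1285, 340.4 and 4218 in tibia (G2, G4, T2). T1 and T2 were the highest library of their site and G3 and G4 the lowest, the sites overlapped, and the log2 fold change was 0.64 (SE 0.615, adjusted p = 0.558). Within the assumed pairs the calvaria level was 1.73 times that of tibia for G1 and G2, 4.05 times for G3 and G4 and 1.30 times for T1 and T2. With these pairs as a replicate block the log2 fold change was 1.05 (SE 0.191, adjusted p = 2.61e-05), a fit that called 17.4% of all symbols higher in calvaria, and with the letter of the library name as a batch it was 0.89 (SE 0.203, adjusted p = 0.000418). Without T1 it turned to -0.12 (adjusted p = 0.932), and without T2 it was 1.90 (adjusted p = 0.00342). Rat, with 1 library a site, had 1332 in calvaria and 656 in tibia, a log2 ratio of 1.02.

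Mouse Bglap had 576 and 222 reads in calvaria (M4, M8) and 541 and 257 in tibia (M5, M7). These are normalized CPM of 54.8 and 24.7 against 45.0 and 25.8, and the log2 fold change was 0.17 (SE 0.464, adjusted p = 0.936). Bglap2 had 709 reads in M4 but only 2 in M8, against 432 and 350 in the tibias, and Bglap3, a further copy, had 19 and 8 against 2 and 6. M8 thus had reads on Bglap almost without reads on Bglap2, whereas the other 3 mouse libraries had reads on both. These copies have no symbol in the other species and were not among the symbols tested.

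**Figure D2:**
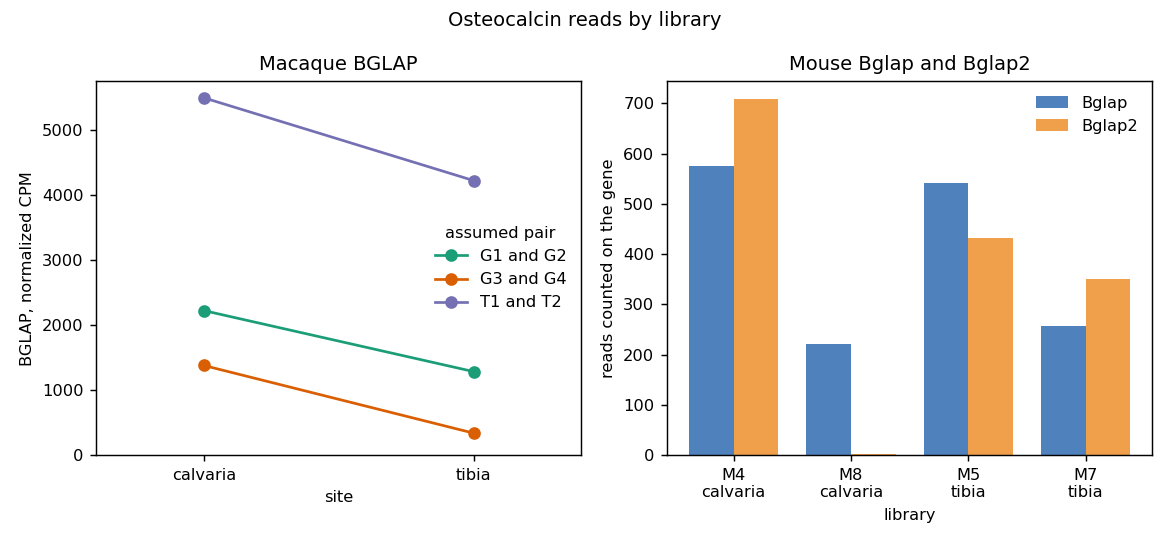
Left, normalized CPM of macaque BGLAP in calvaria and tibia, with lines joining the assumed pairs; right, reads on Bglap and Bglap2 in the 4 mouse libraries. In each assumed macaque pair calvaria is higher, and in mouse the Bglap2 bar of M8 stands at 2 reads.

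The mouse comparison of most members turned on which calvaria library was used. M4 exceeded M8 by 6.55 times for MSX2, 3.88 times for DLX5, 2.76 times for SP7, 2.50 times for MSX1, 2.22 times for BGLAP, 1.83 times for DLX3 and 1.54 times for RUNX2, but not for ATF4 (0.962 times) or for DLX6 (0.760 times, on 8 and 9 reads). Without M4, 7 of 9 genes were called, RUNX2 (-0.50), SP7 (-1.16), DLX3 (-1.91), DLX5 (-1.66), MSX1 (-1.03) and BGLAP (-0.53) higher in tibia and ATF4 (0.54) higher in calvaria, while 47.6% of all symbols were called in that fit. Without M8, 3 of 9 were called, DLX3 (-1.04) in the tibia direction and ATF4 (0.49) and BGLAP (0.62) in the calvaria direction, with 24.9% of all symbols called, and RUNX2 (0.13), SP7 (0.30), DLX5 (0.30) and MSX1 (0.29) turned their sign. These fits leave 1 calvaria, which is assumed to vary as the tibias do. DLX3 and ATF4 kept their direction in both.

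**Figure D3:**
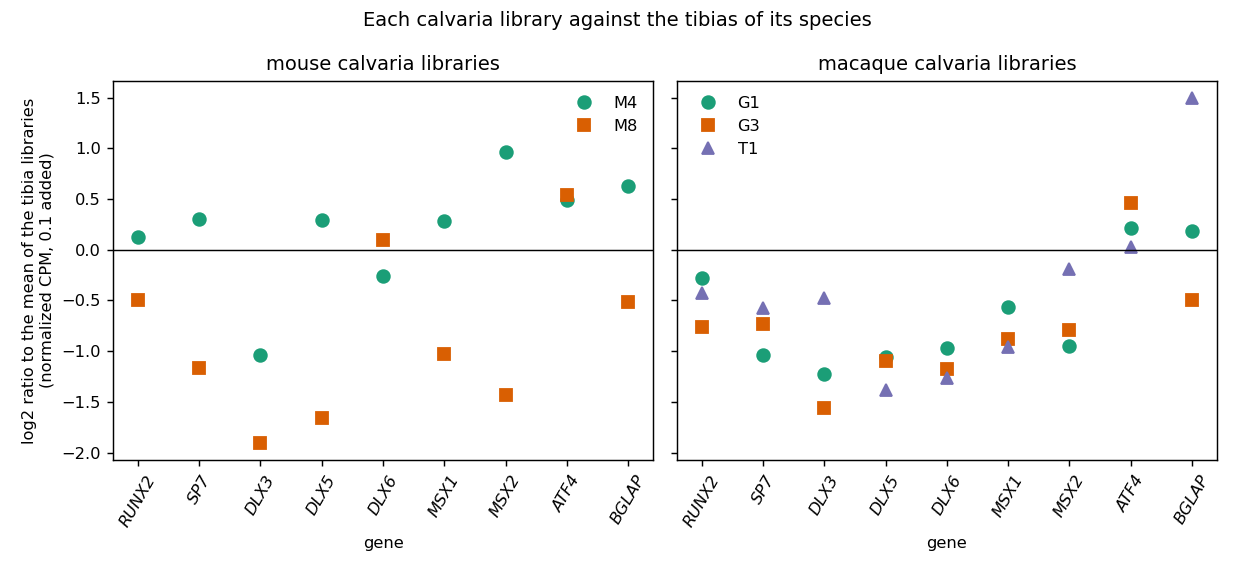
Log2 ratio of each calvaria library to the mean of the tibias of its species, for mouse (left) and macaque (right), with 0.1 normalized CPM added. Mouse M4 lies above 0 and M8 below it for RUNX2, SP7, DLX5, MSX1, MSX2 and BGLAP, whereas the 3 macaque calvariae lie below 0 for all 7 genes from RUNX2 to MSX2. The mean of the tibias hides that for macaque DLX6 and MSX2 the libraries of the sites overlapped.

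Whether the site difference itself differed between mouse and macaque was tested as a species by site interaction over their 10 libraries. None of the 9 genes passed, with 0 at an unadjusted p under 0.05, against 5.00% of all symbols called in edgeR. The lowest p was that of DLX5, with a macaque minus mouse difference in log2 fold change of -0.78 (SE 0.544, adjusted p = 0.562). Without M8, which leaves 1 mouse calvaria, the difference was -1.44 for DLX5 and -1.04 for MSX1. The species also differed in lane, genome and annotation.

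**Figure D4:**
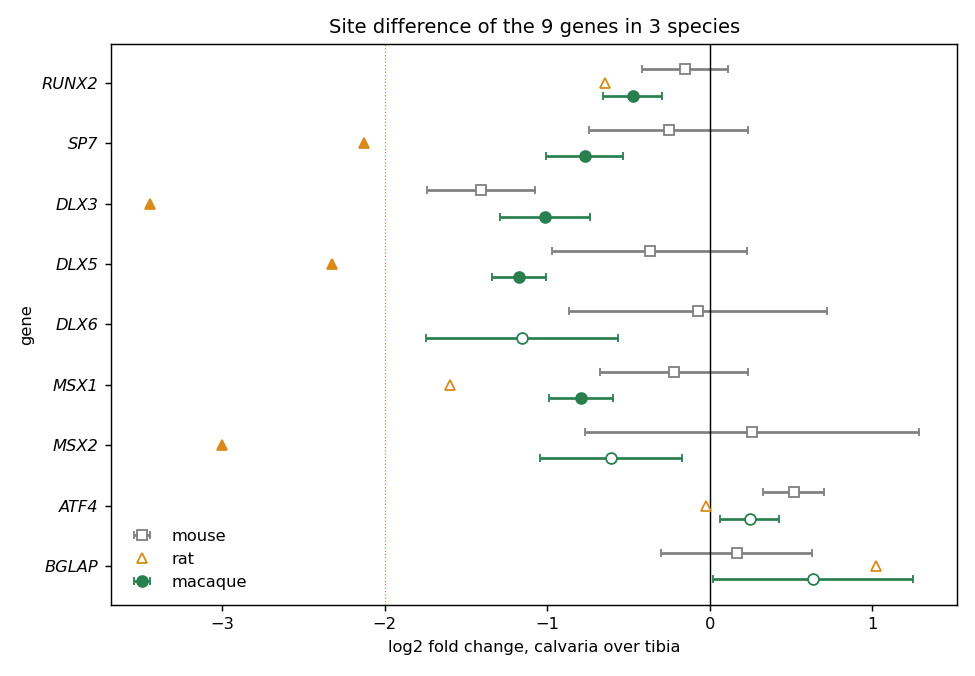
Log2 fold change, calvaria over tibia, of the 9 genes in mouse (squares), rat (triangles) and macaque (circles), with bars of 1 SE for mouse and macaque. Filled symbols are called in macaque or past the dotted line at a log2 ratio of -2 in rat; DLX6 has no rat value, and 7 macaque values lie below 0.

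Levels were compared between genes only per length, as normalized CPM per kilobase of exon in the table. In macaque calvaria the order was BGLAP (9999.6), ATF4 (1056), DLX5 (122), SP7 (50.8), MSX1 (25.7), RUNX2 (24.3), DLX3 (11.8), MSX2 (1.76) and DLX6 (1.45). The order in macaque tibia was the same down to DLX3, and DLX6 (3.23) and MSX2 (2.69) changed places there. Neighbours whose libraries overlapped were MSX1 and RUNX2, and MSX2 and DLX6, at both sites, and RUNX2 and DLX3 in tibia. In mouse tibia ATF4 (252) was followed by SP7 (112), DLX5 (68.1), BGLAP (51.7), DLX3 (39.5), RUNX2 (17.0), MSX1 (12.01), DLX6 (0.866) and MSX2 (0.495), of which BGLAP and DLX3 overlapped. In mouse calvaria, where SP7 (94.4), BGLAP (58.0) and DLX5 (52.6) came next after ATF4 (360.5), SP7 overlapped BGLAP, BGLAP overlapped DLX5, RUNX2 overlapped DLX3, DLX3 overlapped MSX1 and DLX6 overlapped MSX2. In rat ATF4 (827 in calvaria, 840 in tibia) and BGLAP (376 and 185) led, and SP7 (0.0940 and 0.565) was second to last. The exon length listed for BGLAP was 0.303 kb in macaque, 0.685 kb in mouse and 3.545 kb in rat, which bears directly on its level per kilobase. The mouse level of BGLAP leaves out the reads on Bglap2, and the windows shared by these copies make its place in the mouse order uncertain.

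The genes known to act with these factors were read from lists, and their counts are for macaque unless stated. Of 18 tested partners and regulators of RUNX2, 3 were called toward calvaria and 4 toward tibia, against 14.1% and 12.6% of all symbols, and the median log2 fold change was -0.19 against 0.0096 for all symbols. Those with the smallest p were FHL2 (0.66, adjusted p = 0.0855), a cofactor with LIM domains, and CEBPB (0.67, adjusted p = 0.111) toward calvaria, and ZBTB16 (-1.74, adjusted p = 0.0310), a zinc finger repressor, and SMAD5 (-0.56, adjusted p = 0.0602), which carries BMP signals, toward tibia. CBFB, the partner subunit of RUNX2, was at -0.050 (adjusted p = 0.895). Of 2 other DLX genes tested, DLX4 was called higher in tibia (-0.56, adjusted p = 0.19965) and DLX1 was not. In mouse 0 of 18 and 0 of 2 were called, against 0.304% of all symbols. In rat 1 of 18 and 1 of 2 were past the ratio of 2 toward tibia, against 6.39% of all symbols.

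Genes of the bone matrix and of BMP and Wnt signalling were read in the same way. Of 17 tested genes of osteoblast matrix and mineral, 1 was called, SPARCL1 (-1.17, adjusted p = 0.00638), against 26.7% of all symbols in either direction. The median of the 17 genes was -0.017. COL1A1, the main collagen chain of bone, was at -0.063 (adjusted p = 0.945), and IBSP, a target of RUNX2, at 0.44 (adjusted p = 0.389). Of 14 BMP and Wnt genes, 7 were called toward tibia and 0 toward calvaria, against 12.6% and 14.1% of all symbols. Their median was -0.67 against 0.0096. The list mixes ligands and receptors with feedback inhibitors and response genes of these pathways. SMAD6 (-0.74), SMAD7 (-0.59) and ID3 (-0.50), all called toward tibia, are of the latter kinds. The ligand genes BMP7 (-2.30, adjusted p = 1.77e-05) and BMP4 (-1.62, adjusted p = 0.000188) had the smallest p. In mouse 0 of 17 and 0 of 14 were called, against 0.304% of all symbols. In rat 1 of 17 and 3 of 14 were past the ratio of 2 toward tibia, against 6.39% of all symbols.

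Of 9 tested osteocyte genes, 6 were called higher in tibia against 12.6% of all symbols, with SOST, the Wnt inhibitor made by osteocytes (-1.53, adjusted p = 0.00195), and CD44 (-1.02, adjusted p = 0.00286) first. DMP1 (-0.21, adjusted p = 0.533), PDPN (-0.35, adjusted p = 0.455) and PHEX (0.22, adjusted p = 0.599) were not called in macaque. In mouse 2 of 9 were called against 0.304% of all symbols, DMP1 (-2.88, adjusted p = 0.139) and SOST (-2.83, adjusted p = 0.199), both higher in tibia. In rat 5 of 9 were past the ratio of 2 toward tibia, against 6.39% of all symbols. Of 20 tested target genes of ATF4, 4 were called higher in macaque calvaria and 1 higher in tibia, near the shares of all symbols (14.1% and 12.6%). ATF3 (1.47, adjusted p = 0.0121), a partner of ATF4 in the stress response, and MTHFD2 (0.93, adjusted p = 0.0203), an enzyme of mitochondrial folate metabolism, had the smallest p among those higher in calvaria, and DDIT4 (-1.46, adjusted p = 0.137) was higher in tibia. Their median was 0.30, and in mouse 0 of 20 were called.

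**Figure D5:**
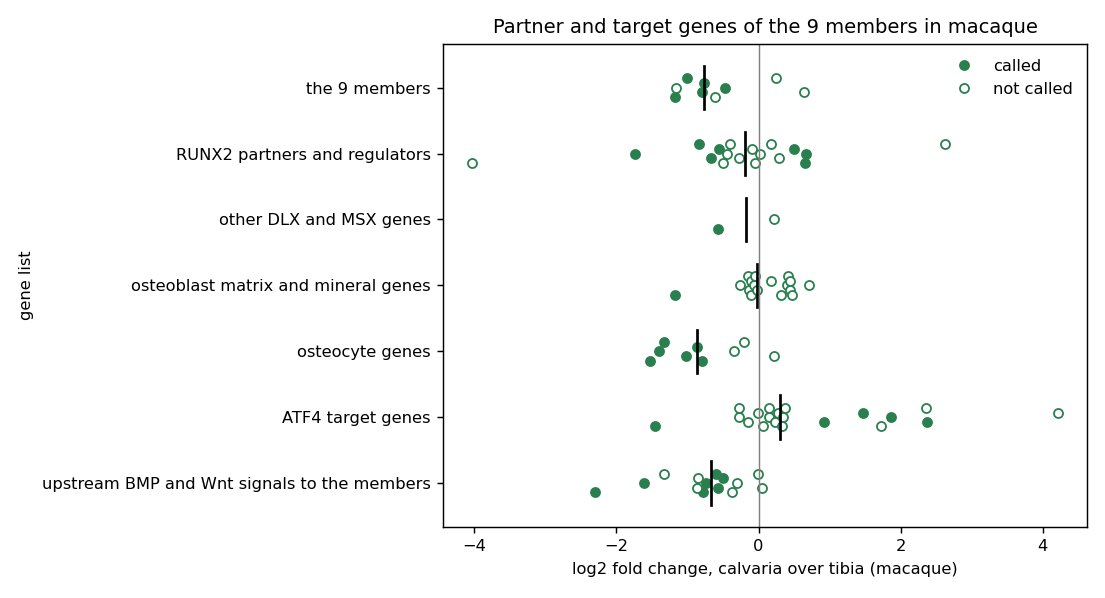
Macaque log2 fold change, calvaria over tibia, of the 9 genes and of the genes in each list, with filled points for called genes and a bar at the median. BMP and Wnt genes have a median of -0.67, osteoblast matrix genes one of -0.017.

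The genes most like each member were found by Pearson's r of log2(normalized CPM + 1) over the 12 libraries, each species centred on its own mean, among 7936 symbols. The libraries share site, depth and makeup, so r is only a description. For DLX5 and MSX1 the list contained each other (0.98), and CSAD, a gene of taurine synthesis, led both (0.99 each). DLX3 was most like TMTC1 (0.98), the ligand gene BMP2 (0.98) and DTNA (0.97). RUNX2 was most like ABCA5 (0.98), PRRC1 (0.97) and FBXL7 (0.95), SP7 like SESTD1 (0.97), CCDC80 (0.96) and ANKRD50 (0.95), and ATF4 like MRPS35 (0.98), PPRC1 (0.95) and DLST (0.91). MSX2 was most like COBL (0.96), LRRC49 (0.95) and NAB2 (0.94), and DLX6 like PQLC3 (0.92), CNOT8 (0.89) and MSL3 (0.88). BGLAP was most like PPIB (0.97), a prolyl isomerase that folds collagen, SSR4 (0.96), a subunit of the translocon, and PHPT1 (0.94). GPRASP1 (0.98) completed the list of MSX1 and CLOCK (0.99) that of DLX5.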

How the data were processed

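The authors aligned single reads of 125 bases with HISAT2 2.0.5 and counted them with HTSeq on merged exons without regard to strand, while the submitters' processing notes name BWA 0.7.10-r789 and HTSeq. As deposited, the values are raw counts of reads per gene, and the authors' normalized signal beside them was not used. Rows naming no gene (0.00261% to 0.0663% of reads) were left out, and rows with 1 symbol were summed. The 10536 symbols with reads in all 3 species were fitted for mouse and macaque separately in edgeR 4.0.16 (TMM, quasi-likelihood test, Benjamini-Hochberg adjustment over all of them). The tested symbols held 60.8% to 70.1% of the reads. A call needed a fold change over 1.1 and a false discovery rate below 0.2. Log2 fold changes are calvaria over tibia. Rat levels and ratios took no TMM factor, except where TMM factors are named as an alternative. Rat ratios took 1 added read and a threshold of 2, and ratios were withheld where no library had more than 3 reads. Alternatives were other scalings, filters, tests (DESeq2 1.42.0), blocks and fits without each library. The members, the lists and the tests were chosen with earlier results of these data known. Named were all 9 members, mouse copies of BGLAP, up to 2 called genes of each list in each direction with the smallest p, and the 3 genes most like each member; CBFB, DLX1, COL1A1 and IBSP were added after their values were seen. Calvaria and tibia deviations across 8691 genes correlated at 0.132, 0.232 and 0.372 in the assumed macaque pairs and at -0.283 to 0.0565 otherwise. The main mouse and macaque fits had site alone and no term for pairs. Their p-values measure the spread between libraries, which in mouse are pools and not single animals. The steps were tested on simulated data. The sequence of 1 further homeobox member is not reported here.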

Additional observations from a re-analysis of the deposited data

How the results depend on the processing

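In macaque the number of members called was between 4 and 7 (5 as reported) under the 16 alternatives, among which it was 4 at a false discovery rate under 0.05. The share of all symbols called also moved with the setting. Higher in calvaria it was 14.1% as reported and 17.4% with the replicate block on assumed pairs. Toward tibia, the direction of most called members, it was 12.6% as reported and is not given for the alternatives. The counts of members alone are therefore no measure of their stability. SP7, DLX3, DLX5 and MSX1 were called under all 15 alternative fits, with log2 fold changes of -0.94 to -0.38, -1.40 to -0.80, -1.27 to -1.09 and -0.93 to -0.68. DLX6 was also called with library size alone (-1.24), with the letter batch (-1.08) and without G2 (-1.61). BGLAP was called with the letter batch (0.89), without T2 (1.90) and with the replicate block on assumed pairs (1.05). That block changed no other macaque call. Without 1 library BGLAP ranged from -0.12 (without T1) to 1.90 (without T2). In mouse the number called was 1 with all symbols, with the exact test and with DESeq2, and 0 to 7 without 1 library, where the log2 fold changes spanned -0.50 to 0.13 for RUNX2, -1.16 to 0.30 for SP7, -1.66 to 0.30 for DLX5, -0.32 to 0.24 for DLX6, -1.03 to 0.29 for MSX1, -1.63 to 1.04 for MSX2 and -0.53 to 0.63 for BGLAP. MSX2 reversed to -0.062 and -0.10 with the replicate block on assumed and crossed pairs, which changed no mouse call. Library size alone moved the median of all mouse genes from 0.039 to -0.076. The interaction called 0 to 2 members without 1 library, with differences of -0.56 to 0.017 for RUNX2, -1.03 to 0.39 for SP7, -1.44 to 0.48 for DLX5, -1.04 to 0.23 for MSX1, -1.60 to 1.01 for MSX2 and -0.26 to 1.76 for BGLAP. In rat SP7 fell short of the threshold with 5 reads added (-1.32) and with TMM factors (-1.93), and ATF4 reversed with TMM factors (0.18). DLX6 gave no value under the filter for reads in all 12 libraries, or in mouse under filterByExpr. Except where an alternative has fewer samples or genes, the cause was not tested. DLX6 and MSX2 had few reads, which limits their precision, and the cause of the low rat SP7 reads was not tested.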
